A study of Rattus norvegicus with 48 samples.

Results

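Loci at which sperm DNA methylation was listed as different in 1 generation only were examined in a rat study of ancestral exposure to organochlorines. They were chosen from the authors' calls: the 6 deposited lists of differentially methylated cytosines were pooled, consecutive cytosines at most 1000 bp apart were merged into loci, and loci with fewer than 5 distinct cytosines, all listed in the same single generation, were kept. This left 2022 of 2716 loci, with 2417 of the 3998 distinct cytosines. Of these loci, 786 were listed in F1 only, 372 in F2 only and 864 in F3 only. The remaining loci were 654 recurrent loci, with cytosines of 2 or 3 generations, and 40 loci of a single generation with 5 or more cytosines.

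DNA was taken from epididymal sperm of Sprague-Dawley males killed at 90 days of age. The assay was reduced representation bisulfite sequencing (RRBS), in which an enzyme enriches fragments rich in CG dinucleotides and bisulfite converts their unmethylated cytosines before sequencing. Founder females, 5 weeks old, were gavaged for 5 weeks and on through mating until birth, with corn oil in the control line and with an Arctic mixture of persistent organic pollutants at 500 µg per kg body weight in the other line, which the labels call organochlorines. Only the founders are described as dosed. The labels give 48 samples, with 6 control and 6 organochlorine samples in each of 4 numbered generations, whereas the lists are described as F1, F2 and F3. The samples whose labels cite the lists are those numbered 2, 3 and 4, each citing all 6 lists, so no list could be tied to single samples. Generations numbered 1 and 2 shared their sequencing lanes and those numbered 3 and 4 shared others, so lane and generation cannot be told apart between these pairs. If the F1, F2 and F3 lists come from the generations numbered 2, 3 and 4, the F1 list was sequenced on other lanes than the F2 and F3 lists. If they come from those numbered 1, 2 and 3, the F3 list was sequenced on other lanes than the F1 and F2 lists. Within each generation, both of its lanes held 3 control and 3 organochlorine samples. Whether animals of a group were littermates is not given in the sources used here.

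In mammals DNA methylation lies mostly on the cytosine of CG dinucleotides (CpG), and the cytosines of its 2 strands are usually methylated together. Most marks are erased and rewritten once in the germ line and again in the early embryo, so a difference seen in the sperm of successive generations would have to pass or be rebuilt through both. A mother dosed during pregnancy exposes the fetus and the germ cells within it. Later generations of the line have no direct contact with the agent.

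Each listed value is a difference in percentage points between 2 groups, as the authors computed it, kept at a false discovery rate below 1% and a difference of at least 20 points. No sample values, group levels or read depths come with it, so no spread between animals could be attached. Membership, direction and size all come from the contrasts that chose the loci, so they are given as descriptions without tests. A cytosine missing from a list can have differed by less than 20 points, missed the false discovery rate or not been read, so a locus listed in 1 generation is not shown to be unchanged in the others. Hypermethylated and hypomethylated are the lists' own terms, and the order of subtraction behind them is not stated. Positions are on Rnor_5.0 as the lists give them. No annotation or sequence of that build was used here, so gene context and sequence are not reported.

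Single-generation loci made up most of what F1 and F3 listed and less than that of what F2 listed. They were 61.3% of the 1283 F1 loci, 44.8% of the 831 F2 loci and 62.1% of the 1391 F3 loci. Counted as cytosines, they held 901 of the 1721 F1 cytosines (52.4%), 470 of the 1219 F2 cytosines (38.6%) and 1046 of the 1997 F3 cytosines (52.4%). F2 thus gave the smallest set both in number and as a share of its own list. The F2 list was also the shortest and was met by longer ones, so this share is not independent of list length.

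The private sets differed in direction. Loci whose cytosines were all in the same list were called hyper- or hypomethylated, which left out 16 mixed loci in F1, 10 in F2 and 12 in F3. In F1, 545 of 770 loci were hypermethylated, or 70.8% (95% exact Clopper-Pearson interval 67.4% to 74.0%). Over all F1 loci of one direction, members included, the share was 64.1%. In F2, 219 of 362 loci were hypermethylated, or 60.5% (55.3% to 65.6%), against 55.5% over all F2 loci. In F3, 386 of 852 were hypermethylated, or 45.3% (41.9% to 48.7%), against 46.5% over all F3 loci. The intervals cover only the counting of loci, which share animals and fragments, and not differences between animals. The private sets were thus mostly hypermethylated in F1 and F2 and mostly hypomethylated in F3, with steps of 10.3 points from F1 to F2 and 15.2 points from F2 to F3. All listed loci, of which the members are a large part, ran the same way, and the F3 member share was close to that of all F3 loci. If the lists subtract the organochlorine group from the control group, these directions turn over.

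Recurrent loci showed little of this shift. Their hypermethylated share was 53.8% in F1 (252 of 468), 51.7% in F2 (229 of 443) and 48.6% in F3 (237 of 488). The gap between F1 and F3 was 5.28 points in recurrent loci and 25.5 points in single-generation loci. Recurrent loci enter more than 1 generation, so their 3 shares are not separate sets, and the difference between the 2 gaps was not tested.

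**Figure D1:**
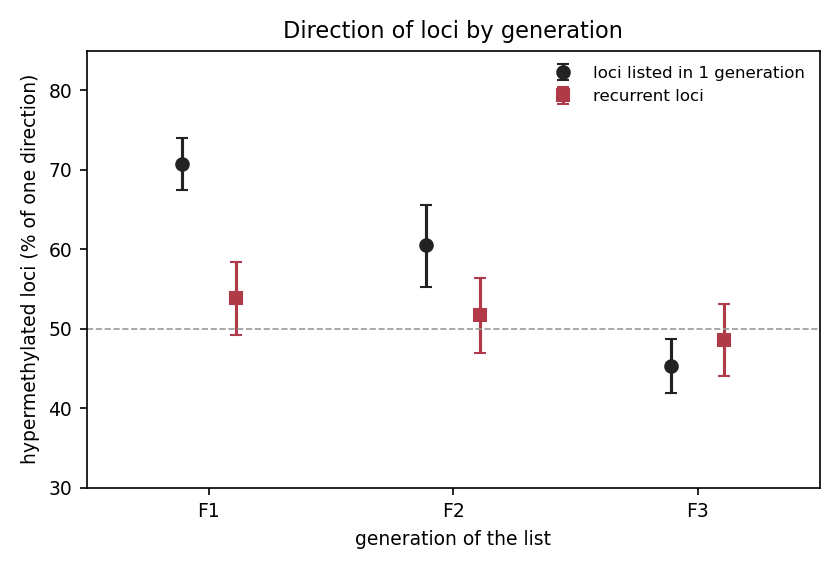
Share of hypermethylated loci among loci of one direction, in percent, for loci listed in 1 generation (circles) and recurrent loci (squares), with 95% exact Clopper-Pearson intervals over loci. Circles fall from 70.8% in F1 to 45.3% in F3, whereas squares lie between 48.6% and 53.8%.

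The hypermethylated majority of the F1 set lay in single cytosines. Of the 698 F1 loci that were a single cytosine, 73.4% were hypermethylated, against 45.8% of the 72 F1 loci with 2 to 4 cytosines of one direction. In F2 the shares were 59.4% of 298 single cytosines and 65.6% of 64 larger loci. In F3 they were 45.4% of 710 and 45.1% of 142. Recurrent loci that were 1 cytosine were near an even split, with 52.0% hypermethylated in F1, 51.2% in F2 and 49.4% in F3.

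In F1 the hypermethylated share was lower at larger differences, in F2 it had no single trend, and in F3 it was nearly level. Among F1 loci with a mean absolute difference of 20 to 25 points, 333 of 447 were hypermethylated (74.5%), and among those of 40 points or more, 13 of 30 (43.3%). The F1 classes in between were at 73.2% and 61.2%. In F2 the 4 classes, from small to large, held 123 of 200 (61.5%), 45 of 63 (71.4%), 34 of 65 (52.3%) and 17 of 34 hypermethylated loci. Recurrent F2 loci went from 56.7% in the lowest class to 41.0% in the highest, and recurrent F1 loci from 56.4% to 54.8%. The F3 shares were 45.8% of 408 and 45.1% of 71, and both classes in between were at 44.9% and 44.6%. When all lists were kept only from 30 points before merging, the F1 share was 55.6%, the F2 share 49.3% and the F3 share 47.9%. That setting changes both the sizes and which loci are listed in 1 generation.

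**Figure D2:**
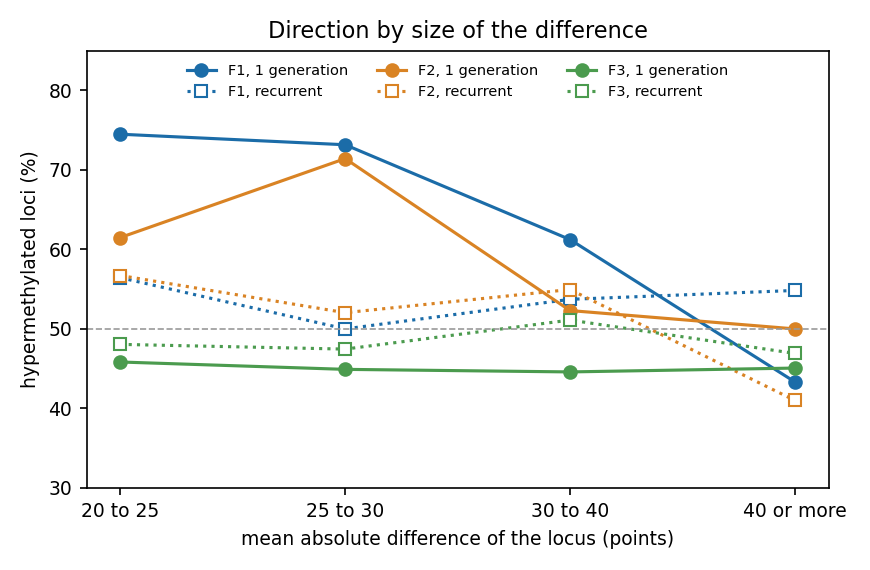
Share of hypermethylated loci in percent (vertical axis) in 4 classes of the mean absolute difference in percentage points (horizontal axis), for loci listed in 1 generation (filled circles) and recurrent loci (open squares). F1 single-generation loci go from 74.5% in the lowest class to 43.3% in the highest, and F3 single-generation loci stay between 44.6% and 45.8%.

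The generations also drew together or apart with the authors' q-values. Among member cytosines with a q-value listed at 0, F1 had 149 of 263 hypermethylated (56.7%), F2 had 98 of 180 (54.4%) and F3 had 150 of 295 (50.8%). Among those with q above 1e-5, F1 had 179 of 245 (73.1%), F2 had 79 of 108 (73.1%) and F3 had 134 of 314 (42.7%). Member shares of F1 and F3 were thus closest where the q-values were lowest and furthest apart where they were highest. The weakest calls also had the smallest differences, with medians of 22.1, 21.9 and 22.7 points in F1, F2 and F3, against 29.0, 31.3 and 32.8 points at q listed at 0. As background, recurrent cytosines with a q-value listed at 0 were near an even split. For F1 there were 233 hypermethylated and 231 hypomethylated ones. The F2 counts were 206 and 189, and those for F3 were 193 and 197. Recurrent cytosines with q above 1e-5 were not counted, so whether the widening gap is particular to members was not tested. The read depth behind the q-values is unknown.

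In size, single-generation loci sat closer to the 20-point minimum than recurrent loci. For loci of one direction the median absolute difference was 24.0 points in F1 (quartiles 21.8 and 28.6), 24.3 in F2 (21.8 and 30.9) and 25.4 in F3 (22.4 and 30.7). Recurrent loci had medians of 27.5, 29.4 and 28.6 points in the same generations. Differences under 25 points made up 58.1% of the F1 members, 55.2% of the F2 members and 47.9% of the F3 members, against 34.8%, 30.2% and 31.6% of recurrent loci. Differences of 40 points or more were found at 30 F1 members (3.90%), 34 F2 members (9.39%) and 71 F3 members (8.33%), and in 13.2%, 22.6% and 16.6% of the recurrent loci. The rule itself uses the same differences in every generation, so this contrast in size is not independent of how the loci were chosen.

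Within the members, hypomethylated loci had higher medians and upper quartiles than hypermethylated ones in F1 and F2. The F1 upper quartile was 31.8 points for hypomethylated and 27.5 for hypermethylated loci, with medians of 24.7 and 23.8. In F2 the upper quartiles were 32.8 and 29.1 points, with medians of 24.7 and 23.9, while both directions had 17 loci of 40 points or more and their highest values were 58.8 and 59.6 points. The F3 distributions nearly coincided, with upper quartiles of 30.8 and 30.5 points and medians of 25.5 and 25.3.

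**Figure D3:**
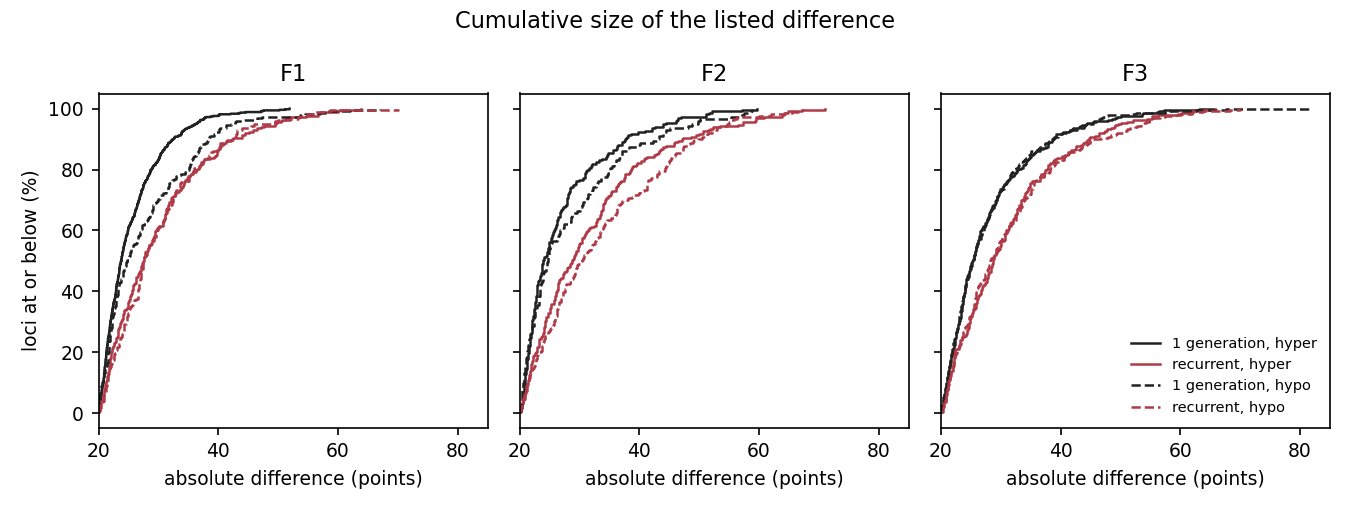
Cumulative share of loci in percent (vertical axis) against the mean absolute difference of a locus in percentage points (horizontal axis), per generation, for hypermethylated (solid) and hypomethylated (dashed) loci. Black lines are loci listed in 1 generation and red lines are recurrent loci; the red lines lie to the right in each panel, with medians of 27.5 to 30.3 points against 23.8 to 25.5.

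The largest values among the members are given here as a description of the extremes. The strongest was an F3 locus on chromosome 1, from 144325212 to 144325213, where the authors' deposited table gave -84.9 points on the plus strand and -79.0 points on the minus strand, which are both strands of a single CpG. The strongest hypermethylated F3 locus was the single cytosine at 69171688 on chromosome 3, at 65.5 points in the authors' deposited table. The largest hypermethylated F2 value in the authors' deposited table was 59.6 points, at 138907226 on chromosome 2. The F2 extreme in the other direction was a locus of 4 cytosines on chromosome 7, from 77851205 to 77851233, whose values in the authors' deposited table ran from -54.9 to -62.1 points. In F1 the extremes were smaller on the hypermethylated side, where the authors' deposited table had 51.9 points at 133548683 on chromosome 6. The hypomethylated F1 extreme in the authors' deposited table was -66.9 points at 18631999 on chromosome 10.

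The 5 leading loci per direction and generation make 30 loci, of which 23 were single cytosines, and all 30 leading cytosines had a q-value listed at 0. Among all members, single cytosines were 88.8% in F1, 80.1% in F2 and 82.2% in F3. The leading hypermethylated values ran from 47.2 to 51.9 points in F1 and from 57.4 to 65.5 in F3, with F2 at 51.7 to 59.6. These values were picked by size, so the lack of overlap between F1 and F3 describes the extremes and not the sets. Among recurrent loci the highest hypermethylated mean was 63.8 points for F1 and 65.8 for F3, with F2 at 71.0. The leading hypomethylated values ran from 56.3 to 66.9 points in F1, 55.3 to 62.1 in F2 and 58.3 to 84.9 in F3. Leading loci lay a median of 491 kb from a recurrent locus, and all members a median of 1188 kb. By direction and generation, the medians of the leading loci ran from 199 kb (F1 hypermethylated) to 1284 kb (F2 hypermethylated). Of the 30, 2 were mixed: on chromosome 15 in F1 the authors' deposited table had -61.3 points at 68258836 beside 20.8 points within a span of 75 bp, and on chromosome 6 in F3 it had 59.2 and 55.5 points on both strands of the CpG at 136471345 beside -26.1 points within 85 bp.

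Most members were a single cytosine, more so in F1. Single cytosines were 88.8% of the F1 loci, 80.1% of the F2 loci and 82.2% of the F3 loci. Loci of 2 cytosines numbered 68, 56 and 130, loci of 3 numbered 13, 12 and 20, and loci of 4 numbered 7, 6 and 4. In F3, 75 of the 130 loci of 2 cytosines (57.7%) were the 2 strands of one CpG, against 28 of 68 in F1 (41.2%) and 15 of 56 in F2 (26.8%). When a CpG was listed on both strands, the strands had the same direction at 31 of 34 F1 CpGs, at 19 of 19 F2 CpGs and at 82 of 84 F3 CpGs. Their absolute differences were then a median of 3.49, 6.34 and 4.89 points apart. Cytosines of both strands were listed about equally, with 49.7%, 52.1% and 51.6% on the plus strand. For most members no adjacent cytosine of the other strand was listed, and whether one was read is unknown. Without the sequence, it was not checked that these members lie in a CpG.

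The upper size limit was 4 cytosines, and the loci on both sides of it are given as a description, with the absolute value of the signed mean as their size, in which opposite signs cancel in mixed loci. Just inside it, 17 loci had 4 cytosines, 8 of them hypermethylated, 7 hypomethylated and 2 mixed, with sizes from 14.6 to 58.8 points and a median of 25.9. Just outside it, 13 loci of a single generation had 5 cytosines, 3 of them hypermethylated and 10 hypomethylated, with sizes from 21.5 to 28.0 points and a median of 24.4. The strongest F1 locus of 4 cytosines was on chromosome 18, from 38305267 to 38305290, at 32.6 to 41.8 points in the authors' deposited table. The strongest in F3 was on chromosome 13, from 86259774 to 86259926, at 27.6 to 29.97 points in the authors' deposited table.

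Single-generation loci were farther from recurrent loci than recurrent loci were from each other. The median distance to the nearest recurrent locus was 1252 kb for F1 members (quartiles 391 and 3082 kb), 1137 kb for F2 members (282 and 3320 kb) and 1060 kb for F3 members (303 and 2992 kb). For recurrent loci the median distance to the next recurrent locus was 462 kb (132 and 1910 kb). The 40 single-generation loci with 5 or more cytosines had a median of 943 kb (207 and 2096 kb). The recurrent value is a distance within a set, and the others are between sets. Within their own generation, members lay a median of 711 kb apart in F1, 1342 kb in F2 and 512 kb in F3. The medians of the 3 private sets were close to one another. Their 95% order-statistic intervals were 1143 to 1404 kb in F1, 864 to 1522 kb in F2 and 930 to 1240 kb in F3, and they overlap. These intervals count each locus as independent, although members can share a nearest recurrent locus. The overlap is therefore not a test that the sets are alike. A recurrent locus within 100 kb was found for 77 F1 members (9.80%), 47 F2 members (12.6%) and 97 F3 members (11.2%), against 21.6% of recurrent loci. Beyond 1 Mb lay 56.2%, 52.4% and 51.4% of the members and 35.8% of recurrent loci. Merging sets a floor of 1000 bp for these distances, and which stretches of the genome were read is not known.

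**Figure D4:**
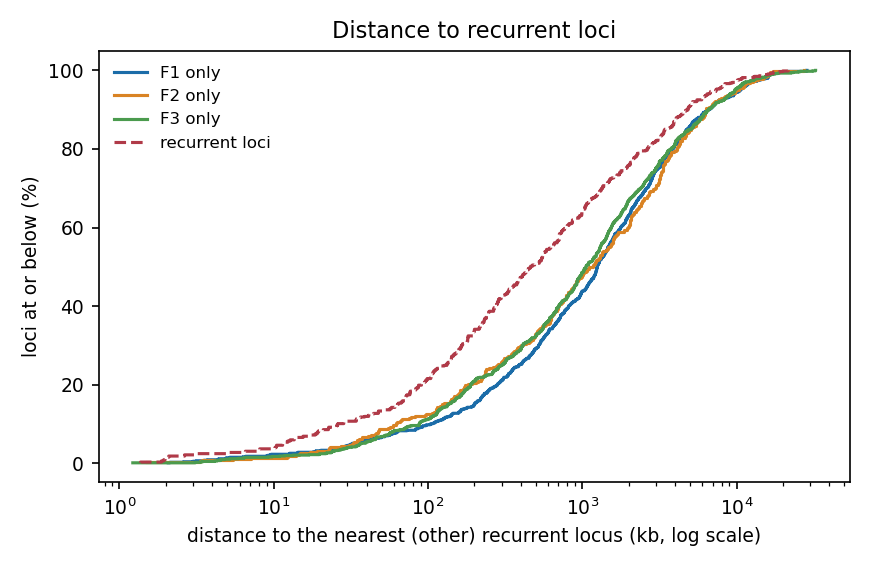
Cumulative share of loci in percent (vertical axis) against the distance to the nearest recurrent locus in kb on a log scale (horizontal axis), for the 3 sets of single-generation loci (solid) and for recurrent loci to their nearest other recurrent locus (dashed). The solid lines run close together with medians of 1060 to 1252 kb, and the dashed line lies to their left with a median of 462 kb.

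Direction varied with this distance in F1 and F2. Among F1 members of one direction, 60.5% of the 76 within 100 kb of a recurrent locus were hypermethylated, 68.9% of the 264 at 100 kb to 1 Mb and 73.7% of the 430 beyond 1 Mb. In F2 the shares were 45.5% of 44, 63.8% of 127 and 61.8% of 191, so only the nearest class was below an even split. In F3 they were 44.7% of 94, 44.1% of 322 and 46.3% of 436. Differences were also larger near recurrent loci in F1 and F3, with medians of 26.3 points within 100 kb and 23.6 points beyond 1 Mb in F1, and 27.9 and 24.8 points in F3. The F2 medians were 24.3 and 23.9 points.

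A nearby recurrent locus was often one that listed the member's own generation. Within 100 kb this was so for 66 of 77 F1 members (85.7%), 43 of 47 F2 members (91.5%) and 84 of 97 F3 members (86.6%), while 74.3%, 68.7% and 77.7% of all recurrent loci list F1, F2 and F3. Within 1 Mb the shares were 84.6% in F1, 78.5% in F2 and 82.6% in F3. The wider window thus gave similar shares in F1 and F3. Within 100 kb and in that same generation, member and recurrent neighbour had the same direction at 31 of 61 F1 members, 16 of 39 F2 members and 52 of 80 F3 members, mixed loci left out. Agreement within 100 kb was therefore near an even split in F1 and below it in F2, and stood at 65.0% in F3. Within 1 Mb it was 55.9% in F1, 46.3% in F2 and 57.7% in F3. Such agreement depends in part on the hypermethylated shares of members and of recurrent loci. The agreement expected from those shares was not computed, and members can share a neighbour, so local agreement was not tested.

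Within 10 kb of a recurrent locus that lists the same generation, the direction was the same at 7 of 15 F1 members, 2 of 5 F2 members and 8 of 15 F3 members. The 2 nearest members of each generation are described as examples, with means over the cytosines of the neighbouring locus computed here. On chromosome 17 the F3 cytosine at 11747889 was at -26.1 points in the authors' deposited table, 1.22 kb from a locus listed in all 3 generations with means of 49.4, 45.8 and 21.4 points. On chromosome 7 the F2 locus from 12832357 to 12832390 held 3 cytosines from 22.5 to 25.2 points in the authors' deposited table, 1.502 kb from a locus with means of -27.4 points in F1 and -44.3 in F2. On chromosome 16 the F1 cytosine at 21259137 was at -42.1 points in the authors' deposited table, 2.07 kb from a locus with means of 49.6 points in F1 and 20.2 in F3. Next in F1 was the cytosine at 36938226 on chromosome 15, at -58.1 points in the authors' deposited table and 2.12 kb from a locus of 5 cytosines with means of 27.3 points in F1 and 25.1 in F2. The second nearest F2 locus, on chromosome 20 from 7219259 to 7219340, was at 24.1 points in the authors' deposited table, 3.335 kb from a locus with a mean of -41.5 points in F2. In these 5 cases the member had the opposite sign to its neighbour in its own generation. The second nearest F3 member, on chromosome 8 from 128215901 to 128215902, was at -24.9 and -37.0 points in the authors' deposited table. It shared the negative sign of its neighbour 3.10 kb away, whose F3 cytosines were at -37.3 and -32.7 points in the authors' deposited table.

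The most isolated members were single cytosines, as were most members of one direction at any distance. Within 100 kb of a recurrent locus the single-cytosine share was 90.8% in F1, 81.8% in F2 and 83.0% in F3. Beyond 1 Mb it was 90.5%, 83.2% and 83.3%. The farthest from any recurrent locus was the F3 cytosine at 111686851 on chromosome 15, 32554 kb away and at -23.3 points in the authors' deposited table. The farthest F1 member was on chromosome 4 at 185087271, 28633 kb away and at 28.1 points in the authors' deposited table. The farthest F2 member lay on the same chromosome at 183755816, 27333 kb from a recurrent locus and at 24.9 points in the authors' deposited table.

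Members of each generation lay on all 20 listed chromosomes. Hypermethylated loci were in the majority on 19 of them in F1, on 13 in F2 and on 5 in F3, and the F1 share was above the F3 share on 19 chromosomes. The exception was chromosome 11, with 7 of 15 hypermethylated in F1 and 18 of 33 in F3. On chromosome 17 the F1 and F3 shares were nearly level, at 54.8% and 54.3%, as on chromosome 19, at 54.5% and 53.1%. Shares over all listed loci were not computed per chromosome, so a pattern particular to members is not shown. The widest F1 majority was on chromosome 12, with 34 of 38 loci hypermethylated, against 15 of 22 in F2 and 17 of 38 in F3. Chromosome 13 had 31 of 37 hypermethylated in F1 and 6 of 26 in F3. Chromosome 7 held 62 F1 members (7.89%) and 29 F2 members (7.80%), but 25 F3 members (2.89%), and 5.35% of recurrent loci. The chromosomes named here were picked with these values known.

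**Figure D5:**
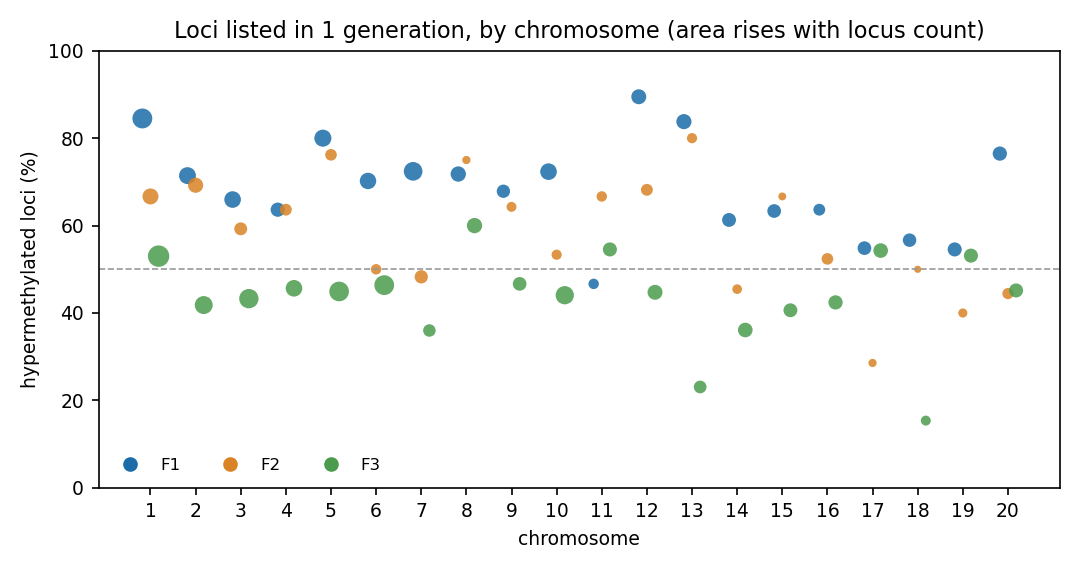
Share of hypermethylated single-generation loci in percent (vertical axis) on each chromosome (horizontal axis) for F1, F2 and F3, with point area rising with the number of loci. F1 points lie above F3 points on 19 of 20 chromosomes, with chromosome 11 the exception and chromosomes 17 and 19 nearly level.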

How the data were processed

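The deposited lists give, for each cytosine, a position, a strand, a signed difference in percentage points, a p-value and a q-value, all calculated by the authors. Per the submitters' processing notes, the tools were methylKit 0.9.4, Bismark 0.14.5, Trim Galore 0.4.0, bedtools 2.17, SAMtools 1.2 and CASAVA, on Rnor_5.0. Their roles, the coverage minimum and the model are not stated in the labels. A p-value was listed at 0 for 738 member cytosines. Depth per sample is unknown.

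Lists were pooled and merged at 1000 bp. The value of a locus is the mean absolute difference of its cytosines. Distance is the gap between the nearest ends of 2 loci. Merging and distances were tested on simulated data. Computation used matplotlib 3.10.9, SciPy 1.17.1, pandas 2.3.3 and numpy 2.4.6 under Python 3.11.15. The members, classes and rules were chosen with earlier results of these data known. Loci were named by rule: per generation the 5 largest values per direction, up to 3 loci of 4 cytosines, and the 2 loci nearest to and farthest from a recurrent locus; not all are printed. Background shares are over listed loci, since the number of cytosines tested was not used. Reference tables on another build gave no gene names or sequences here.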

Additional observations from a re-analysis of the deposited data

How the results depend on the processing

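Of 108 values under alternative settings, 74 stayed within 1.5 times the main count or inside the main value's 95% interval. With all lists kept from 25 points, F1, F2 and F3 had 423, 245 and 562 members, hypermethylated shares of 61.9% in F1 and 54.4% in F2, median differences of 30.03, 31.6 and 30.5 points, and median distances of 1846, 1868 and 1860 kb. From 30 points there were 255, 203 and 358 members. The hypermethylated share was 55.6% in F1 and 49.3% in F2, where the majority gave way to a nearly even split. Median differences were 35.1, 36.2 and 35.4 points and median distances 2823, 2891 and 2611 kb. A higher minimum shortens every list by construction. Among the members of at least 25 points the F1 share was 65.6%. At q of at most 1e-5 the median differences were 25.7, 26.3 and 27.9 points and the F1 median distance was 1417 kb. Over single cytosines only, the F3 median difference was 24.7 points. Distances rose to 6505, 6656 and 6385 kb from recurrent loci of all 3 generations, and to 1468, 1636 and 1384 kb from those listing the member's own generation, an alternative chosen after seeing the data, as was taking the sign of the mean with mixed loci. Merging at 100 or 10000 bp, no size limit, the largest difference of a locus, cytosines in place of loci and recurrence by cytosine stayed within these bounds where run. No paired analysis was possible because the lists hold no samples, and no replicate could be left out. Unknown depth limits all sizes and absences.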

Other observations

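Members of different generations also lay close together in a few places. At a gap of at most 10 kb there were 23 pairs of members from different generations, 12 with the same direction, 10 with opposite directions and 1 with a mixed locus. Pairs from the same generation numbered 29, with 19 the same, 7 opposite and 3 with a mixed locus. At a gap of at most 100 kb, 92 of 179 pairs from different generations had the same direction (51.4%), against 122 of 199 from the same generation (61.3%), mixed loci left out. For F2 with F3 members it was 15 of 38 (39.5%). Within a generation it was 54 of 82 F1 pairs, 14 of 23 F2 pairs and 54 of 94 F3 pairs. Such agreement depends in part on the hypermethylated share of each generation, which was 70.8% in F1. The agreement expected from those shares was not computed, so local agreement was not tested. In the authors' deposited table, on chromosome 12, F1 and F3 members 1256 bp apart, at 345957 and 344701, stood at 24.0 and -21.3 points, and on chromosome 15, F1 and F3 members 1550 bp apart, at 52190680 and 52192230, stood at 24.0 and 36.6 points. On chromosome 4, in the same table, an F1 member at 17882201 was at 22.4 points and an F2 member at 17879255 at -48.8 points. These pairs were chosen after their values were seen.

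The strands of 1 CpG were listed in opposite directions at 3 CpGs of F1 members and 2 of F3 members. They were on chromosomes 2, 3 and 7 in F1 and on chromosomes 16 and 20 in F3. The F1 CpG at 158896094 on chromosome 3 was, in the authors' deposited table, at -23.7 points on the plus strand and 30.5 on the minus strand, and on chromosome 20 the F3 CpG at 12850621 was at -21.8 and 33.3 points. These 2 examples were also chosen after their values were seen. The cause was not tested.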
